A study of Mus musculus with 42 samples.

Results

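The genes described here encode the subunits of the mitochondrial respiratory chain and of the ATP synthase, together with the assembly factors of complex I that share their name stem. A gene belonged to the group when its only platform symbol began with Nduf, Uqcr, Cox4 to Cox8 or Atp5, or was Sdha, Sdhb, Sdhc or Sdhd. Each gene was represented by 1 probe set, taken from the chip 430A where it had one there and otherwise from 430B, the one with the highest mean signal. The rule found 90 genes, on 179 probe sets, among 18193 genes with a single symbol, and used no difference between days. They comprised 36 Nduf genes of complex I, 8 Ndufaf assembly factors, 4 genes of complex II, 8 of complex III, 17 of complex IV and 17 of complex V. Of these, 87 had enough signal to be tested, and the 3 too dim to test were the complex IV genes Cox7a1, Cox7c and Cox8b.

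The respiratory chain passes electrons from NADH and succinate through complexes I, II, III and IV to oxygen and pumps protons across the inner mitochondrial membrane, and the ATP synthase, complex V, uses the proton gradient to make ATP. Most subunits are encoded in the nucleus and imported, while a few core subunits are encoded by mitochondrial DNA and are not among the genes described here. Pluripotent stem cells are known for a high rate of glycolysis and for immature mitochondria, and the use of oxidative phosphorylation generally increases in differentiating cells.

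The samples were D3 cells, a mouse embryonic stem cell line from the blastocyst, driven to become osteoblasts, which form bone. RNA was taken on 7 days between day 4 and day 30 (the others being 5, 6, 8, 16 and 25), with 3 replicates a day, so 21 RNA samples, each hybridised to both chips, 42 arrays in all. All samples carry the same growth protocol, which names DMEM with vitamin D3, beta-glycerophosphate and ascorbic acid. VD3 appears in the titles from day 6 on, so that the day and this label change together. No untreated, undirected or undifferentiated culture was analysed here. The labels estimate the purity as pure clone and leave contaminating cell types undetermined. The replicates of a day share a single sample identifier, and nothing says that they came from separate cultures. The p-values thus reflect only how far these samples spread. Marker sums could differ widely within a day, as given below, and what this spread stands for was not tested.

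All levels are log2 of the deposited signal, and a change is the later day minus the earlier one on that scale, with its standard error (SE) from the fit over all 7 days. Array medians lay between 476.0 and 684.3 signal units on 430A and between 793.7 and 905.2 on 430B. Day 4 replicate 2 and day 25 replicate 2 stood apart for these genes. Day 4 replicate 2 was the highest of its day for 42 of the 87 genes and the lowest for 31, by more than 0.5 log2 units for 23 and 14 of them, and day 25 replicate 2 was the highest of its day for 60 genes. The ratio of 3' to 5' signal of the Gapdh control, which rises as RNA shortens, averaged 3.27 ± 0.19 on day 30 and 3.84 ± 0.38 on day 25, against 2.63 ± 0.37 on day 4 (log2, SD, n = 3 each, 430A). On 430A days 4 and 5 were scanned together, days 6, 8 and 16 together, and days 25 and 30 together except day 25 replicate 3, so on this chip day and scan batch cannot be told apart in any comparison that crosses these sets. Of the tissue markers, 5 of 10 osteoblast genes were tested, and 3 of them (Sparc, Pth1r and Col1a1) were higher on day 30 than on day 4, while the early bone markers Alpl and Sp7 did not pass the test and the other 5 of the list were not tested. On 430A the summed signal of the 5 tested osteoblast genes was 17.19 to 17.53 on day 30, against 12.34 to 13.82 on day 4 (log2). That sum followed its brightest gene, since Sparc alone had a mean of 17.03 on day 30. The mean of Alpl was 8.78 on day 30, against 10.01 on day 4. The sum of 8 pluripotency genes was 11.43 to 11.90 on day 30, against 14.43 to 17.03 on day 4. That of 8 endoderm genes was 17.59 to 17.81, against 12.23 to 14.45. The part of these shifts in the makeup of the cultures was not tested, and fewer cells of a type and less RNA per cell cannot be told apart in bulk RNA.

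Messages for many of these genes were lower on day 30 than on day 4. Of the 87 genes tested, 24 were lower and 2 were higher (limma, adjusted p below 0.05), 64 had a change below zero, and the median change was -0.41. On 430A 22 of 81 genes were lower (27.2%), beside 13.9% of all probe sets tested on that chip, and 2 were higher (2.47%), beside 14.2%. On 430B 2 of 6 genes were lower and 0 higher, beside 3.39% and 4.22% of all probe sets. The median change of all probe sets was -0.03 on 430A and -0.09 on 430B. In 22 of the 24 lower genes the 3 values of day 30 all lay below the 3 of day 4. The comparison crosses scan batches, and 20 genes were called without day 4 replicate 2 and 17 without day 30 replicate 2.

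**Figure D1:**
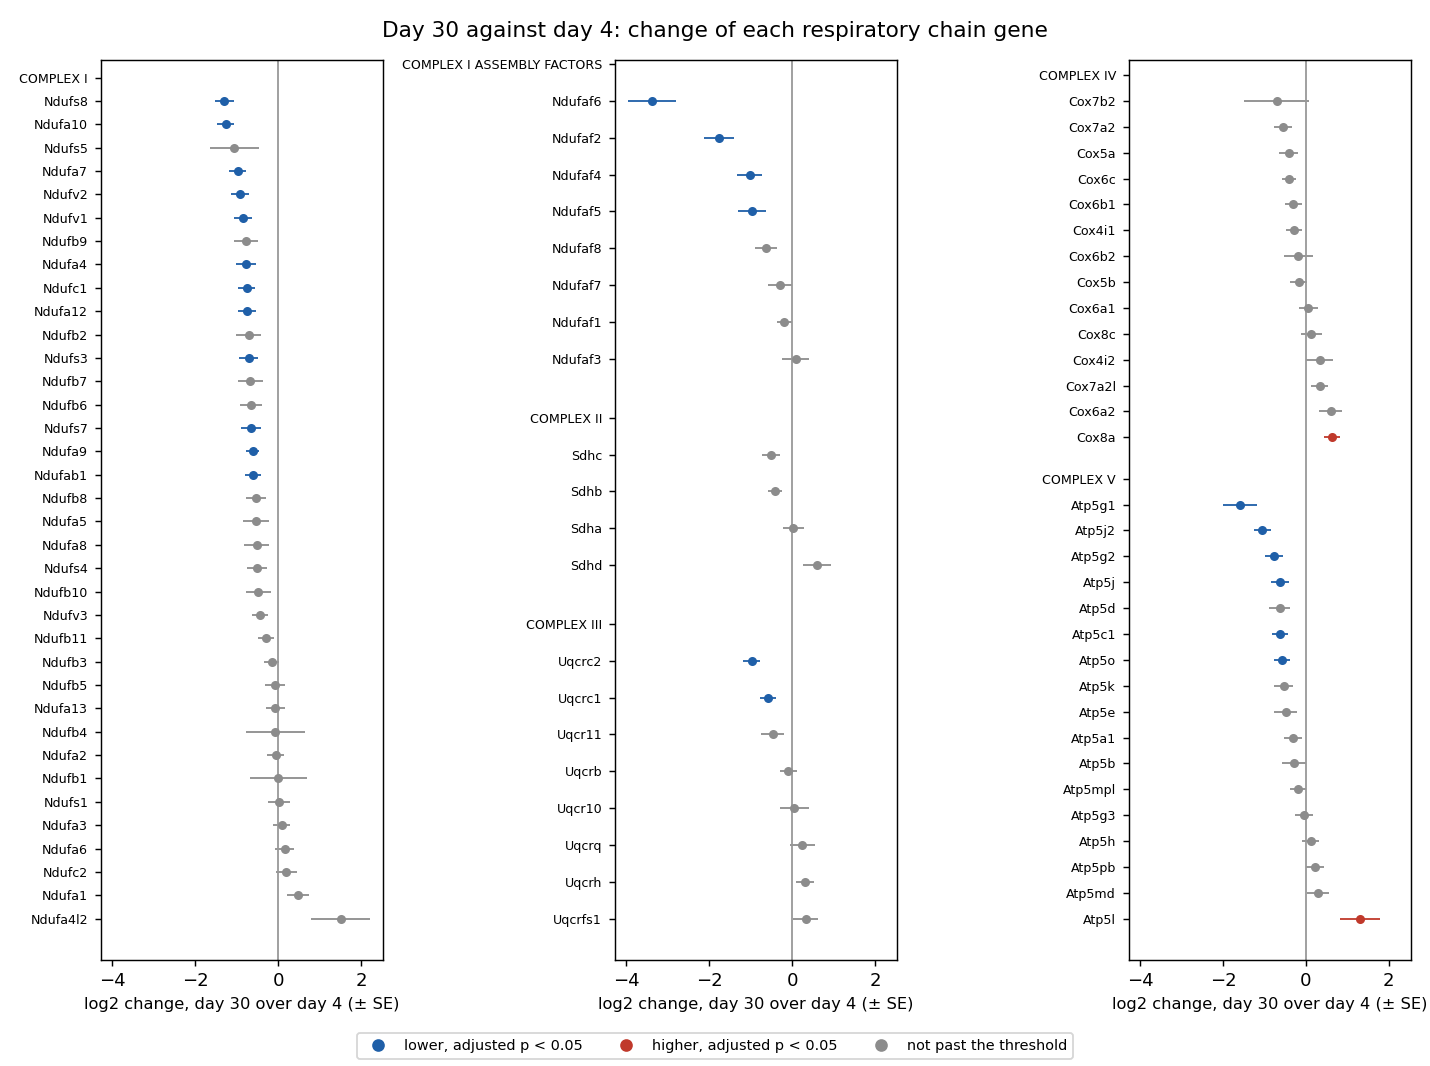
Log2 change on day 30 over day 4 for each of the 87 tested genes (x axis, point with SE), one row a gene, grouped by complex; blue points were lower and red points higher past the adjusted p threshold. Most complex I and assembly factor points lie left of zero, with Ndufaf6 at -3.38, while the complex IV points lie on both sides and only Cox8a is marked.

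In complex I, the NADH dehydrogenase, 12 of 36 genes (33.3%) were lower on day 30 than on day 4 and 0 were higher, with a median change of -0.54. The lower genes included subunits of the peripheral arm that takes up electrons from NADH. Ndufs8, an iron-sulfur protein of that arm, read 11.86, 11.51 and 11.93 on day 30, against 12.65, 13.51 and 13.03 on day 4. All 3 day 30 samples were below all 3 day 4 samples, and Ndufs8 was 2.46-fold lower (change -1.30, SE 0.22, limma adjusted p = 2.08e-04). Ndufa10, an accessory subunit of the membrane arm, read 11.32, 11.67 and 11.71 on day 30, against 12.60, 13.31 and 12.60 on day 4. The groups did not overlap here either, and Ndufa10 was 2.41-fold lower (change -1.27, SE 0.21, adjusted p = 1.18e-04). Its mean was highest on day 4 and lowest on day 30.

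Other complex I genes also fell. Ndufa7, an accessory subunit, read 11.14, 11.38 and 11.41 on day 30, against 11.92, 12.89 and 12.06 on day 4, a change of -0.98 (SE 0.21, limma adjusted p = 0.00179). Ndufv2, the iron-sulfur subunit beside the flavin site, read 13.04, 12.78 and 12.88 on day 30, against 13.72, 13.62 and 14.13 on day 4, a change of -0.92 (SE 0.22, adjusted p = 0.00366). Ndufv1, which binds NADH and the flavin, read 12.12, 12.26 and 12.08 on day 30, against 12.72, 13.29 and 12.97 on day 4, a change of -0.84 (SE 0.21, adjusted p = 0.00577). In each of these genes the 2 days did not overlap. Ndufs1, the largest iron-sulfur subunit of the same arm, showed no such difference, with 10.95, 11.21 and 11.21 on day 30, against 11.45, 10.36 and 11.52 on day 4 (change 0.02, SE 0.27, adjusted p = 0.971). Its day 4 samples spread over more than 1 log2 unit, with replicate 2 the lowest.

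Assembly factors insert cofactors and join the parts of complex I and are not found in the finished enzyme. Of 8 Ndufaf genes, 4 were lower on day 30 than on day 4 and 0 were higher, with a median change of -0.79. Ndufaf6 had the largest change of any of the 87 genes, with 10.85, 8.48 and 8.69 on day 30, against 12.90, 12.77 and 12.49 on day 4. The day 30 samples lay well below the day 4 samples but spread over more than 2 log2 units themselves, and the gene was 10.4-fold lower (change -3.38, SE 0.59, limma adjusted p = 5.38e-04). Ndufaf6 was read on 430B, where day 30 replicate 1, the highest of these, was scanned in another batch than replicates 2 and 3. The part of scan batch in this spread was not tested. The day means of Ndufaf6 went down at every step, reading 12.72, 12.25, 12.09, 10.55, 10.06, 9.50 and 9.34 in order of the 7 days. Ndufaf2 read 11.11, 10.70 and 10.27 on day 30, against 11.96, 12.52 and 12.88 on day 4 (change -1.76, SE 0.35, adjusted p = 0.00207). Ndufaf4 read 10.37, 10.52 and 10.50 on day 30, against 11.68, 11.29 and 11.49 on day 4 (change -1.02, SE 0.29, adjusted p = 0.0123). Neither gene's days overlapped. Ndufaf5, whose values did overlap, was also lower (change -0.96, SE 0.33, adjusted p = 0.0349; lost in 3 of 6 fits that left out a sample), and the remaining Ndufaf genes, Ndufaf1, Ndufaf3, Ndufaf7 and Ndufaf8, did not pass the test, with changes of -0.62 to 0.09.

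Complex II, the succinate dehydrogenase of the citric acid cycle, had 0 of 4 genes called in any comparison made. On day 30 the flavoprotein gene Sdha differed from day 4 by 0.03 (SE 0.26, limma adjusted p = 0.948), the iron-sulfur gene Sdhb by -0.40 (SE 0.17, adjusted p = 0.0838), and the membrane anchors Sdhc and Sdhd by -0.51 (SE 0.21, adjusted p = 0.0822) and 0.61 (SE 0.33, adjusted p = 0.19). Sdhb nevertheless kept its days apart, with 12.71, 12.60 and 12.52 on day 30, against 12.96, 13.23 and 12.85 on day 4. A second probe set of Sdha on 430A, which can pick up more than 1 gene, was lower on day 30 (change -0.69, SE 0.20, adjusted p = 0.015), so the probe sets of Sdha did not agree.

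In complex III, which hands electrons to cytochrome c, 2 of 8 genes were lower on day 30 than on day 4 and 0 were higher, with a median change of -0.01. Both were the core proteins. Cyc1, cytochrome c1 of this complex, lies outside the name rule and was also lower, as given below with other mitochondrial genes. Uqcrc2 read 13.42, 13.55 and 13.20 on day 30, against 14.19, 14.80 and 14.11 on day 4, with no overlap (change -0.98, SE 0.21, limma adjusted p = 0.00157). Uqcrc1 read 12.36, 12.41 and 12.28 on day 30, against 12.84, 13.03 and 12.90 on day 4, also without overlap (change -0.57, SE 0.19, adjusted p = 0.0312), but its call was lost when any of 5 of the 6 samples was left out (highest adjusted p 0.0875). With the Gapdh 3' to 5' ratio as a covariate the change of Uqcrc1 was -0.34 (adjusted p = 0.215). Uqcrfs1, the Rieske iron-sulfur protein, read 12.46, 12.42 and 12.67 on day 30, against 12.76, 11.15 and 12.66 on day 4, a change of 0.33 (SE 0.30, adjusted p = 0.451), and day 4 replicate 2 was again its lowest sample.

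In complex IV, cytochrome c oxidase, 0 of 14 tested genes were lower on day 30 than on day 4 and 1 was higher, with a median change of -0.18. The count follows the gene names, so Ndufa4, called lower and since assigned to complex IV, was counted in complex I. Differences between complexes were not tested. Several complex IV subunits exist as pairs of isoforms for different tissues. The widely expressed Cox6a1 changed by 0.05 (SE 0.23, limma adjusted p = 0.895) and its muscle partner Cox6a2 by 0.60 (SE 0.28, adjusted p = 0.115). Cox4i1 changed by -0.29 (SE 0.18, adjusted p = 0.27) and its low-oxygen and lung isoform Cox4i2 by 0.33 (SE 0.32, adjusted p = 0.483). Cox6b1 changed by -0.31 (SE 0.20, adjusted p = 0.284) and the testis isoform Cox6b2 by -0.19 (SE 0.35, adjusted p = 0.741). Cox7a2 came close to the threshold, with 14.78, 14.88 and 14.45 on day 30, against 14.95, 15.77 and 15.05 on day 4 (change -0.55, SE 0.21, adjusted p = 0.0609), while Cox7a2l, a factor for supercomplexes, changed by 0.33 (SE 0.20, adjusted p = 0.239). The core-binding subunits Cox5a and Cox5b changed by -0.41 (SE 0.23, adjusted p = 0.198) and -0.18 (SE 0.21, adjusted p = 0.587). The heart and muscle isoforms Cox7a1 and Cox8b were too dim to test, with 8.16, 8.00 and 8.44 for Cox7a1 and 8.16, 5.75 and 6.07 for Cox8b on day 30, against 7.73, 9.79 and 8.14 and 5.63, 6.40 and 5.11 on day 4.

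The complex IV gene called higher was Cox8a, the general isoform of a small membrane subunit, and its probe sets did not agree. On the probe set used it read 13.79, 13.41 and 13.67 on day 30, against 12.78, 12.98 and 13.23 on day 4, with no overlap (change 0.63, SE 0.20, limma adjusted p = 0.0256). The call was lost when any of 3 samples was left out (highest adjusted p 0.0989), and with median centring (0.57, adjusted p = 0.0689) or with the Gapdh ratio as a covariate (0.61, adjusted p = 0.0676). A dimmer probe set of Cox8a, designed to be unique to the gene where the one used may be shared between transcripts, ran the other way, with a change of -0.61 (SE 0.25, adjusted p = 0.0792). The direction of Cox8a is not settled by these arrays.

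In complex V 6 of 17 genes were lower on day 30 than on day 4 and 1 was higher, with a median change of -0.49. The ring of subunit c, which turns as protons pass, is encoded by 3 genes, Atp5g1, Atp5g2 and Atp5g3, whose mature products are the same protein. Atp5g1 read 9.58, 10.19 and 10.46 on day 30, against 10.77, 12.31 and 11.90 on day 4, and was 2.99-fold lower (change -1.58, SE 0.41, limma adjusted p = 0.00621). Atp5g2 read 12.55, 12.44 and 12.71 on day 30, against 13.06, 13.75 and 13.22 on day 4, and was 1.71-fold lower (change -0.78, SE 0.21, adjusted p = 0.00895). For both genes every day 30 sample lay below every day 4 sample, although the change of Atp5g2 was -0.57 (adjusted p = 0.0506) without day 4 replicate 2. Atp5g3 read 16.01, 16.01 and 15.66 on day 30, against 16.15, 15.42 and 16.22 on day 4, and its days overlapped (change -0.04, SE 0.22, adjusted p = 0.924). The day 30 minus day 4 difference in the within-sample log ratio to Atp5g3 was -1.54 for Atp5g1 and -0.74 for Atp5g2, and neither passed an exact permutation test over the 3 samples a day (two-sided p = 0.2 and 0.3, adjusted 0.3 for both over 4 pairs, smallest possible p 0.1).

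The promoters of the c-ring genes are shown because these 3 genes encode 1 protein. That of the assembly factor Ndufaf4 was added because Ndufaf4 and Atp5g2 were both lower on day 30 and carry the same motif. Ndufaf4 was thus picked by its result and its motif together, so the pair gives no measure of a link between them. Sequences are RefSeq windows of build GRCm38.p6, from 250 bases before to 50 after the gene's start, 5' to 3' on the gene's strand, and capitals mark motif matches on either strand.
Atp5g1 promoter, chr11:96075582-96075881, minus strand: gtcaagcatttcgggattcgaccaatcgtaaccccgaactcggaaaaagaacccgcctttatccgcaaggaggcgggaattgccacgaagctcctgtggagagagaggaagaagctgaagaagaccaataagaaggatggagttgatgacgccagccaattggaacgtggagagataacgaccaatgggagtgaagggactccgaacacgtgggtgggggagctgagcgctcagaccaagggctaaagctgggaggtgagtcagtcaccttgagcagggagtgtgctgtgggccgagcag
Atp5g2 promoter, chr15:102670998-102671297, minus strand: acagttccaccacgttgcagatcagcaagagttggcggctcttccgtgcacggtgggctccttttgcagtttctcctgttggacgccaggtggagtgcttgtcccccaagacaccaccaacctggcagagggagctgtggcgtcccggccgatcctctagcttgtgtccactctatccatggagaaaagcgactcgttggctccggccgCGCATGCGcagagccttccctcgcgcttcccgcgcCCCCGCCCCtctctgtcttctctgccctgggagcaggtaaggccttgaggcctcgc
Atp5g3 promoter, chr2:73911277-73911576, minus strand: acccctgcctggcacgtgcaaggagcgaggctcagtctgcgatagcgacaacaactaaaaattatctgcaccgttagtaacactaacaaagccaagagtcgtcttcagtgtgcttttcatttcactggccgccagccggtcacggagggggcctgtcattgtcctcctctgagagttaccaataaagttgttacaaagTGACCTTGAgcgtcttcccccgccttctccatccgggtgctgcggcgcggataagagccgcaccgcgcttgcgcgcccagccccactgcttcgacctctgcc
Ndufaf4 promoter, chr4:24897833-24898132, plus strand: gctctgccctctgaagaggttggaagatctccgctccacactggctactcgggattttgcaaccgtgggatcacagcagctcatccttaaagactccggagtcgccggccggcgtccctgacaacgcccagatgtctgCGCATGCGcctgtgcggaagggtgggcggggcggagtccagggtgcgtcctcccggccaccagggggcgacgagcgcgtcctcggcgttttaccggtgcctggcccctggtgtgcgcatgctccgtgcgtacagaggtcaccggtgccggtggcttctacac
The 5 motifs searched were CGCATGCG for NRF1, CCGGAAG for GABP and other ETS factors, AAGATGGCG for YY1, TCAAGGTCA for the estrogen-related receptors and GGGGCGGGG for SP1. No match overlapped another in the windows of these genes. In the windows shown, Atp5g2 holds the NRF1 motif and the SP1 motif on the opposite strand, Atp5g3 the receptor motif on the opposite strand, Ndufaf4 the NRF1 motif, and Atp5g1 none of them. A match is a run of letters and not a measured binding site.

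A window was at hand for 74 of the 90 genes. NRF1 is an activator of nuclear genes for mitochondrial proteins, and its motif stood in 10 of the 74 (13.5%), beside 2.07% of 27025 genes of the table. The ETS motif stood in 19 (25.7%), beside 9.93%, the YY1 motif in 7 (9.46%), beside 1.64%, the receptor motif in 2 (2.7%), beside 0.466%, and the SP1 motif in 12 (16.2%), beside 12.9%. Of the 22 genes lower on day 30 with a window, 5 held the NRF1 motif, 5 YY1, 3 ETS, 2 SP1 and 0 the receptor motif. Of the 49 tested genes not lower, 5 held the NRF1 motif, 2 YY1, 16 ETS, 10 SP1 and 2 the receptor motif. These shares were not tested.

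Other complex V genes of the rule were lower as well. Atp5j2, subunit f of the membrane part, read 13.24, 12.81 and 12.89 on day 30, against 13.59, 14.48 and 14.04 on day 4, with no overlap (change -1.06, SE 0.21, limma adjusted p = 6.71e-04). Atp5j, coupling factor 6 of the stalk, read 12.97, 12.72 and 12.73 on day 30, against 13.38, 13.74 and 13.19 on day 4, also without overlap (change -0.63, SE 0.22, adjusted p = 0.0333), and this call was lost without any of 4 of the 6 samples (highest adjusted p 0.132). The catalytic subunit genes did not pass, with changes of -0.31 (SE 0.22, adjusted p = 0.328) for Atp5a1, the alpha subunit, and -0.29 (SE 0.28, adjusted p = 0.497) for Atp5b, the beta subunit. Without day 4 replicate 2, in which Atp5b read 13.15 against 14.21 and 14.52 in the other samples of that day, its change was -0.69 (adjusted p = 0.0404). Atp5l, subunit g, was the higher gene and is named after its values were seen. It read 9.80, 10.14 and 9.05 on day 30, against 9.20, 7.31 and 8.58 on day 4, and the days overlapped (change 1.30, SE 0.48, adjusted p = 0.0486). The call was lost without any of 4 of the 6 samples (highest adjusted p 0.255), with changes of 0.78 to 1.72.

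**Figure D2:**
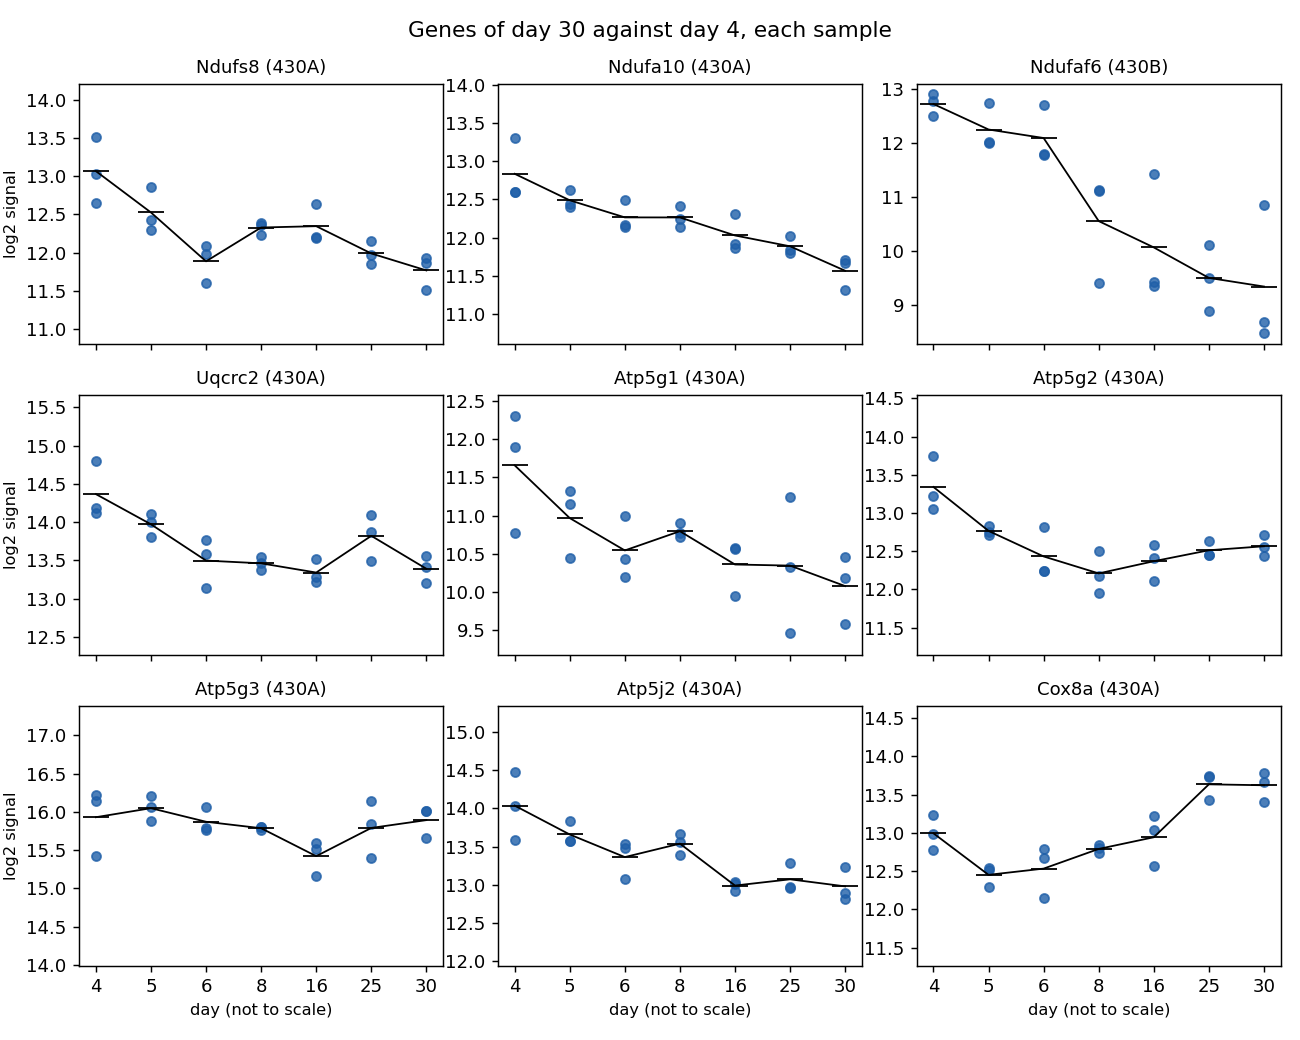
Log2 signal (y axis, own range for each gene, at least 3 log2 units) of 9 genes in each of the 21 samples by day (x axis, spaced evenly); points are samples and the line joins the day means. Ndufaf6 drops to a mean of 9.34 on day 30, Atp5g1 and Atp5g2 lie lower on day 30 than on day 4, and Atp5g3 overlaps between these days.

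The other probe sets of the same genes were a partial check. Of 28 further tested probe sets for 15 of the 26 called genes, 26 had the same sign of change on day 30 against day 4 as the probe set used, 10 were called in the same direction and 0 in the opposite direction. Some moved far less than the probe set used. The other probe set of Uqcrc2 gave -0.23 (adjusted p = 0.399), and 1 of those of Ndufv2 gave -0.16 (adjusted p = 0.602). The probe sets unique to Ndufs8 gave -0.13 and -0.45 (adjusted p = 0.861 and 0.615). Another probe set of Ndufv2 gave -1.16 and the remaining ones of Ndufs8 gave -0.89 to -1.02. The size of these changes thus depends on the probe set. Of 51 further probe sets for genes not called, 6 were called. Those of Atp5k (change -1.02), Sdha (-0.69) and Ndufb6 (-0.66) were lower. Those of Uqcr10 (1.25) and Uqcrh (1.05) in complex III and of Cox7a2l (0.72) were higher. The probe sets used were of 3 designs, 39 unique to a gene, 32 for several transcripts of 1 gene and 19 that may be shared with other sequences, and values from shared probe sets, among them those of Ndufs8, Ndufv1, Atp5e, Atp5j2 and Cox8a, are uncertain to that extent.

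Over all 7 days, 29 of the 87 genes differed between some days (limma F test, adjusted p below 0.05). On 430A these were 26 of 81 (32.1%), beside 36.2% of all probe sets, so the share was no higher than that of the chip, and on 430B 3 of 6, beside 9.73%. By complex the called genes were 11 in complex I, 3 assembly factors, 0 in complex II, 5 in complex III, 4 in complex IV and 6 in complex V. Of the 29, 18 were also called on day 30 against day 4 and 11 by the F test alone. Day 4 had the highest mean for 46 of the 87 genes, and the lowest mean fell on day 6 for 24, on day 16 for 23 and on day 30 for 18.

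**Figure D3:**
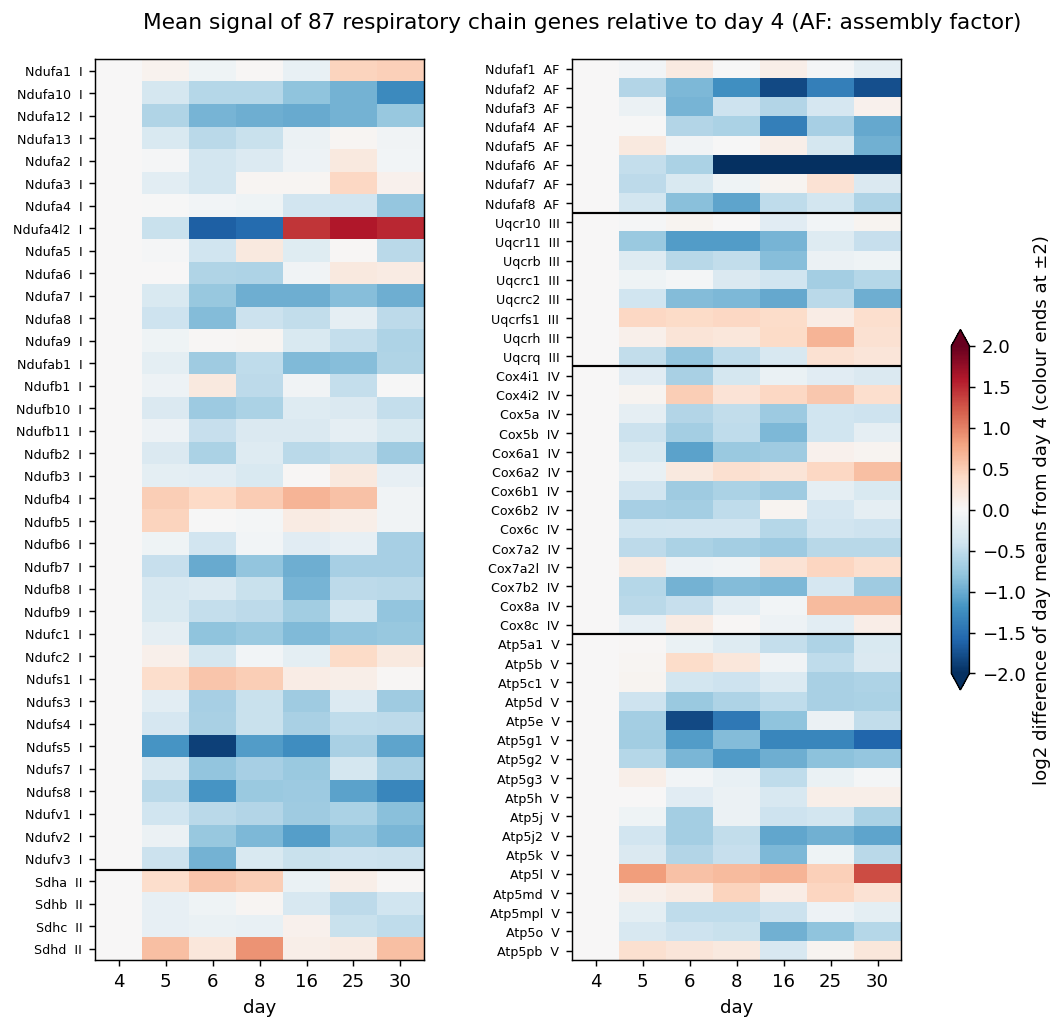
Difference of each day's mean from the day 4 mean (colour, log2, blue lower and red higher, ends at 2 log2 units either way) for the 87 tested genes (rows, by complex, AF marking the assembly factors) on the 7 days (columns). Blue prevails from day 6 on, Ndufaf6 and Ndufaf2 stay blue to day 30, Ndufa4l2 turns from blue to red on day 16, and Cox6a1 and Atp5e are bluest on day 6.

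The medians of complexes I, III, IV and V lay close together on days 8 and 16 and further apart on day 30. The 4 genes of complex II had a median difference from the day 4 mean of 0.09, 0.07, 0.27, -0.03, -0.16 and -0.19 on the 6 later days. For complex I the median difference from the day 4 mean was -0.21, -0.56, -0.44, -0.41, -0.36 and -0.54 in order of the 6 later days, and for complex V it was -0.09, -0.42, -0.41, -0.48, -0.36 and -0.49. For complex IV it was -0.35, -0.62, -0.44, -0.35, -0.22 and -0.18, and for complex III -0.17, -0.30, -0.39, -0.36, -0.09 and -0.01 in the same order. Complexes III and IV thus stood nearer to day 4 on days 25 and 30 than on day 6, while the medians of complexes I and V on day 30 lay close to those of day 6; medians over genes carry no test here. The Gapdh 3' to 5' ratio was at its highest on days 25 and 30, and its part in these medians was not tested.

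**Figure D4:**
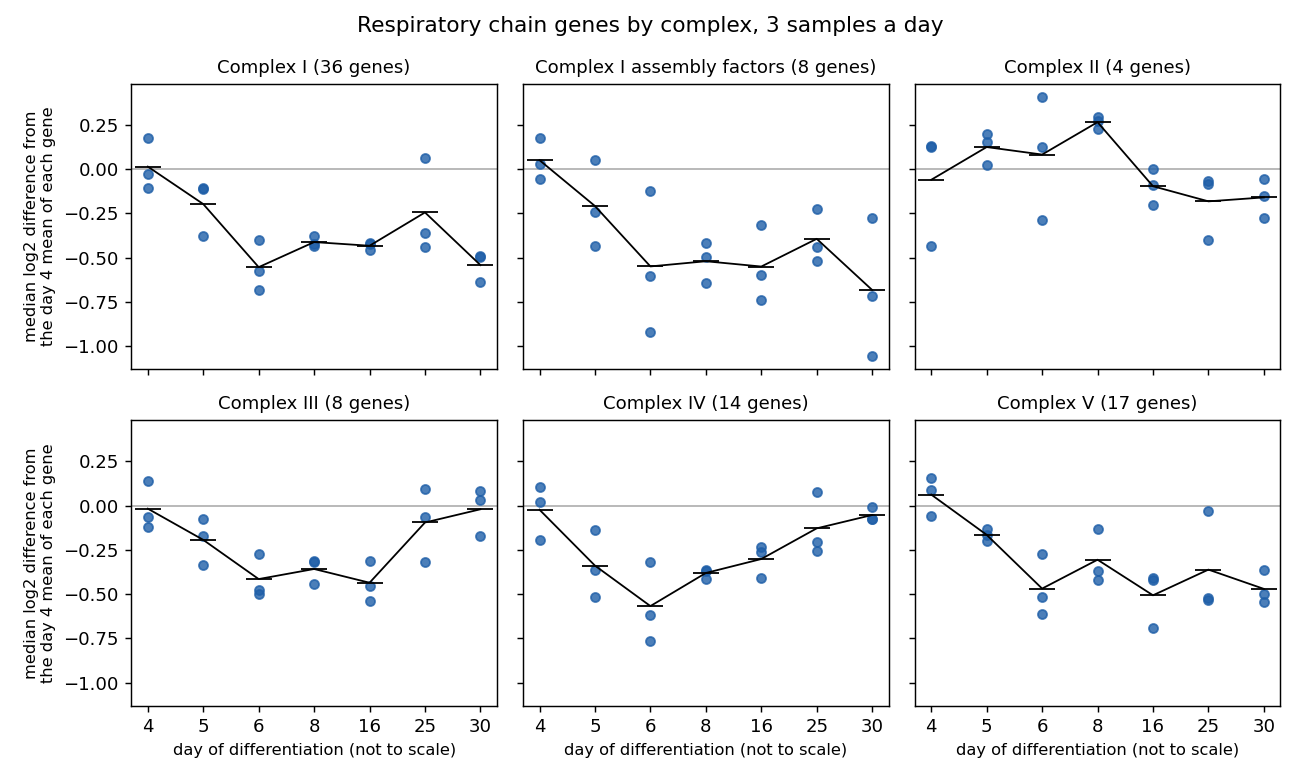
Median over the tested genes of a complex of the log2 difference from each gene's day 4 mean (y axis) in each sample (points, 3 a day) by day (x axis, spaced evenly); the line joins the means of the 3 samples. The complex I and V points of day 30 lie below those of day 4, those of complexes III and IV on day 30 lie near zero, and the complex II points lie above zero on days 5 and 8 and on both sides of it on day 6.

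Day 16 against day 4, a comparison added after the data were examined, gave the most calls. Of the 81 genes on 430A, 29 were lower (35.8%), beside 11.5% of all probe sets, and 0 were higher, beside 14.1%. On 430B 2 of 6, Ndufaf2 and Ndufaf6, were lower, beside 1.88%. On 430B day 5 replicate 1 was scanned with days 6, 8 and 16. With scan batch as a fixed block, which rests on this 1 array, the change was -1.29 for Ndufaf2 (adjusted p = 0.733) and -2.30 for Ndufaf6 (adjusted p = 0.57), against -1.81 and -2.66 without the block. All 31 had separate values on the 2 days. By complex the lower genes were 13 of 36 in complex I, 3 of 8 assembly factors, 0 of 4 in complex II, 3 of 8 in complex III, 6 of 14 in complex IV and 6 of 17 in complex V. Here complex IV was included. Cox5b read 15.19, 14.86 and 15.34 on day 16, against 15.81, 16.24 and 16.03 on day 4 (change -0.90, SE 0.21, limma adjusted p = 0.00387), and Uqcrb, the ubiquinone-binding protein gene of complex III, read 15.90, 15.81 and 16.00 on day 16, against 16.59, 16.88 and 16.78 on day 4 (change -0.85, SE 0.20, adjusted p = 0.00419). The day 30 values of both overlapped those of day 4, with changes of -0.18 and -0.09. Day 4 replicate 2 carried part of this count, since 20 genes were called without it.

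Day 6 against day 4, also added afterwards, gave genes already lower on day 6. This comparison crosses scan batches and the start of the VD3 label, and on 430A day and batch cannot be told apart in it. On 430A 16 of 81 genes were lower (19.8%), beside 3.4% of all probe sets, and 0 were higher, beside 4.06%. On 430B 0 of 6 were lower, beside 0.302%. The median change over the 87 genes was -0.53. This count rested on single samples, being 25 without day 4 replicate 1, 3 without day 4 replicate 2, 4 without day 6 replicate 1 and 2 without day 6 replicate 2. Atp5e, the epsilon subunit of the ATP synthase, had the largest change among the 16 genes called, with 9.71, 10.09 and 10.17 on day 6, against 11.38, 12.26 and 11.75 on day 4, and was 3.50-fold lower with no overlap (change -1.81, SE 0.27, limma adjusted p = 0.00196). Cox6a1 read 14.49, 14.48 and 14.52 on day 6, against 15.24, 16.12 and 15.34 on day 4, again without overlap (change -1.07, SE 0.23, adjusted p = 0.00998). Uqcr11, a small accessory subunit of complex III, read 11.31, 11.36 and 11.60 on day 6, against 11.97, 13.21 and 12.42 on day 4 (change -1.11, SE 0.28, adjusted p = 0.0204). Leaving out a sample ended the calls of Cox6a1 and Uqcr11 in 3 of 6 fits each (highest adjusted p 0.0529 and 0.108) and that of Atp5e in 0. Summed marker signal of striated muscle, 14 tested genes, reached 12.89 to 17.05 on day 6 and 15.99 to 17.12 on day 8, against 12.29 to 13.49 on day 4, and that of 7 erythroid genes 13.76 to 16.47 on day 6, against 10.50 to 11.93 on day 4 (log2), and the part of these cells in the day 6 values was not tested.

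A few of these genes were higher again late in the course. On day 30 against day 6, the last comparison added, 6 of 81 genes on 430A were higher (7.41%), beside 9.61% of all probe sets, and 3 were lower (3.7%), beside 10.7%, so neither share exceeded that of the chip. On 430B 1 of 6 was higher, beside 2.36%, and 1 lower, beside 2.3%. The 7 genes called higher were Atp5e, Cox6a1, Cox8a, Ndufa4l2, Ndufa6, Ndufaf3 and Uqcrq, and those called lower were Ndufa4, Ndufa9, Ndufa10 and Ndufaf6; Ndufa6, Ndufa9, Ndufaf3 and Uqcrq are named after their values were seen. Leaving out a sample ended the calls of Ndufa6 in 4 of 6 fits, Ndufaf3 in 3, Uqcrq and Ndufa10 in 2 each, and Atp5e, Cox6a1, Cox8a, Ndufa9 and Ndufaf6 in 0. Cox6a1 read 15.65, 15.79 and 15.42 on day 30, against the 14.48 to 14.52 of day 6 (change 1.12, SE 0.23, limma adjusted p = 0.00148), and its day means were 15.57, 15.26, 14.50, 14.82, 14.85, 15.65 and 15.62 over the 7 days. Atp5e read 11.62, 11.20 and 11.11 on day 30, against the 9.71 to 10.17 of day 6 (change 1.32, SE 0.27, adjusted p = 0.00167), with day means of 11.80, 11.12, 9.99, 10.36, 10.98, 11.68 and 11.31. With the Gapdh ratio as a covariate 6 genes were called in place of 11, 4 of them higher and 2 lower.

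Ndufa4 and Ndufa4l2 are paralogues that the naming puts in complex I, though NDUFA4 has since been assigned to complex IV, and NDUFA4L2 is known as a target of hypoxia-inducible factor that lowers complex I activity. Ndufa4l2 had the largest rise on day 16 against day 6, with 12.76, 14.05 and 12.24 on day 16, against 9.35, 9.55 and 10.97 on day 6, and was 8.35-fold higher without overlap (change 3.06, SE 0.70, limma adjusted p = 0.0221). Its call was lost without any of 4 of the 6 samples (highest adjusted p 0.143), while its change stayed between 2.55 and 3.57. On day 30 it read 12.94, 12.79 and 13.57, against 11.60, 13.35 and 9.83 on day 4, and these overlapped (change 1.51, SE 0.70, adjusted p = 0.234). The day 4 samples spread over more than 3 log2 units. Ndufa4 moved the other way late in the course, with 12.06, 11.56 and 11.80 on day 30, against 12.85, 12.42 and 12.47 on day 4 (change -0.77, SE 0.24, adjusted p = 0.0183). It was also lower than on day 6 (change -0.71, SE 0.24, adjusted p = 0.0374). Leaving out a sample ended the call against day 4 in 2 of 6 fits (highest adjusted p 0.0855) and that against day 6 in 5 of 6 (highest adjusted p 0.145). The Ndufa4 difference from day 4 had an adjusted p of 0.0589 with the Gapdh ratio as a covariate.

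**Figure D5:**
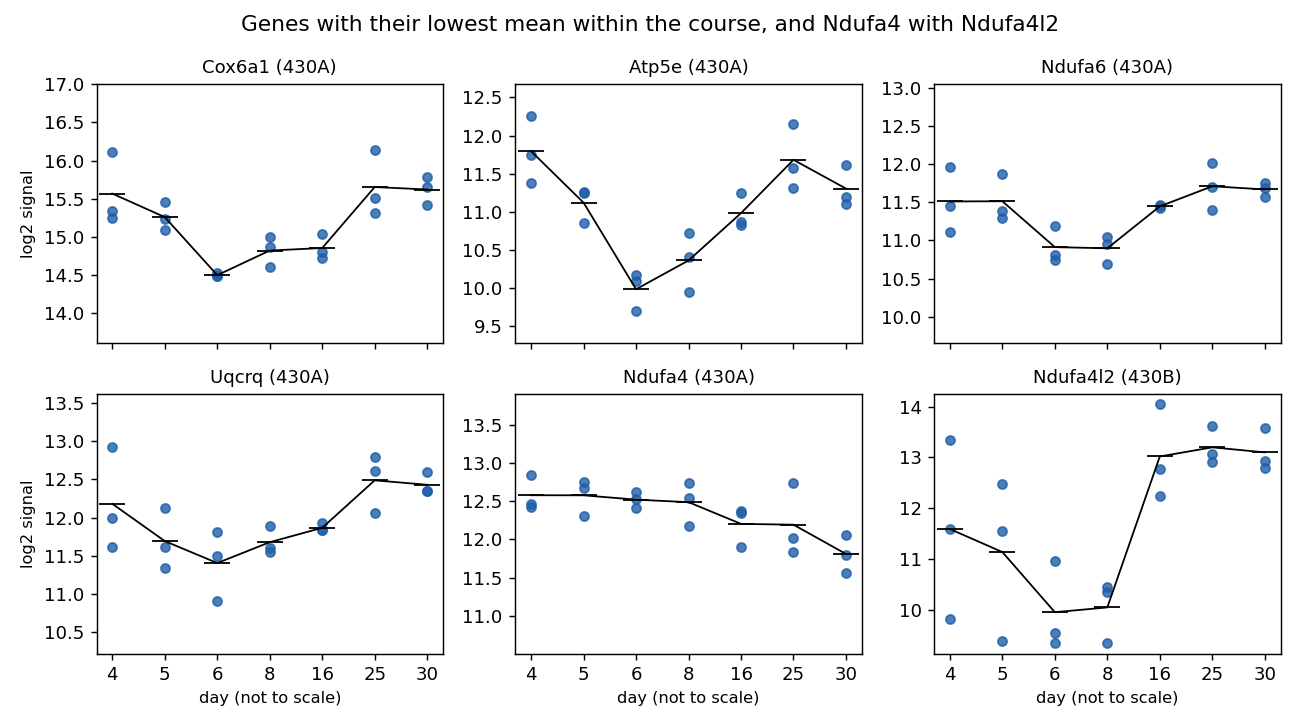
Log2 signal (y axis, own range for each gene, at least 3 log2 units) of 6 genes in each of the 21 samples by day (x axis, spaced evenly); points are samples and the line joins the day means. Cox6a1, Atp5e, Ndufa6 and Uqcrq are lower on days 6 and 8 and higher on days 25 and 30, Ndufa4 is lowest on day 30, and Ndufa4l2 stands near 10 on days 6 and 8 and near 13 from day 16 on.

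Day 16 against day 6 lies within 1 scan batch on both chips. On 430A 1 of 81 genes was higher, beside 6.77% of all probe sets, and 0 were lower, beside 4.5%. On 430B 1 of 6 was higher, beside 1.18%, and 0 were lower, beside 0.576%. The 2 genes were Atp5e, with 11.25, 10.87 and 10.83 on day 16, against 9.71, 10.09 and 10.17 on day 6 (change 1.00, SE 0.27, limma adjusted p = 0.0212; lost in 2 of 6 fits that left out a sample), and Ndufa4l2. At an unadjusted p below 0.05 there were 6 higher and 7 lower genes, with no count of all probe sets at that threshold. The median change was -0.01, with 45 of the 87 genes below zero.

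No gene passed the threshold between successive days. Over both chips the share of all probe sets called was 0.00573% for day 5 against day 4, 0.0544% for day 6 against day 5, 0.063% for day 8 against day 6, 1.69% for day 16 against day 8, 0.346% for day 25 against day 16 and 0% for day 30 against day 25, and 0 of the 87 genes were called in each (limma). At an unadjusted p below 0.05 the genes lower and higher were 9 and 0, 14 and 0, 1 and 3, 8 and 3, 1 and 14, and 0 and 0 in that order. All probe sets were not counted at this looser threshold, so these counts have no background to be read against. Days 4 and 5 share a scan batch on 430A, and 66 of the 87 genes lay below zero on day 5 against day 4, with a median of -0.20. The median for day 6 against day 5 was -0.29 and that for day 25 against day 16 was 0.16.

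Other mitochondrial genes were set beside the respiratory chain on day 30 against day 4. Of all probe sets, 13.9% were lower and 14.2% higher on 430A, and 3.39% and 4.22% on 430B. Of 76 genes for the mitochondrial ribosome, which translates the subunits encoded in mitochondrial DNA, 28 were lower (36.8%) and 0 higher, with a median of -0.60. Mrpl11 (change -2.33, SE 0.29, limma adjusted p = 7.61e-06) and Mrpl38 (change -2.31, SE 0.57, adjusted p = 0.00418) had the largest changes. Of 22 genes for the import of proteins into mitochondria, 8 were lower (36.4%) and 0 higher, with a median of -0.63. Timm17b (change -1.67) and Timm8a1 (change -1.58) led these. Of 39 other assembly factors and cytochromes, 8 were lower (20.5%) and 0 higher, with a median of -0.36. Among the lower ones were Cyc1, cytochrome c1 of complex III (change -1.16, SE 0.23, adjusted p = 9.22e-04), and Ecsit, an assembly factor of complex I (change -1.12). Of 47 genes for the cytosolic ribosome 24 were lower (51.1%) and 0 higher, with a median of -0.70. A shift of this direction was thus not limited to mitochondrial lists.

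Pathways that feed the chain were counted in the same way, and differences between lists were not tested. Of 18 genes of the citric acid cycle and pyruvate dehydrogenase, 3 were higher and 3 lower on day 30 (16.7% each, near the chip's 14.2% and 13.9%), with a median of -0.13, the isocitrate dehydrogenase subunit gene Idh3g being lower (change -1.43, SE 0.27, limma adjusted p = 4.83e-04) and the lipoamide dehydrogenase gene Dld higher (change 1.25, SE 0.41, adjusted p = 0.0262). Of 15 genes of fatty acid oxidation 4 were higher (26.7%, beside the chip's 14.2%) and 0 lower, with a median of 0.02. They were led by Etfdh, which passes electrons from fatty acids to ubiquinone (change 1.75, SE 0.39, adjusted p = 0.0019), and the carnitine carrier gene Slc25a20 (change 1.41, SE 0.29, adjusted p = 9.57e-04). Of 9 carriers and channels 1 was lower (11.1%, no higher than the chip's 13.9%), the ADP and ATP exchanger gene Slc25a5 (change -1.36, SE 0.27, adjusted p = 8.91e-04). Of 17 glycolysis genes and hypoxia targets 5 were higher (29.4%) and 6 lower (35.3%), beside the chip's 14.2% and 13.9%, with a median of -0.11. The largest changes were the rises of the growth factor gene Vegfa (change 3.59) and the carbonic anhydrase gene Car9 (change 2.77). Among the glycolysis genes, the means of Pkm and Pfkl were 14.21 and 13.68 on day 30, against 15.81 and 15.03 on day 4. That of Hk1 was 12.28, against 10.61. Of 17 listed transcription regulators and mitochondrial DNA factors, 1 was higher (5.88%) and 2 were lower (11.8%). Neither share exceeded the chip's 14.2% and 13.9%. Esrra was higher (change 1.25, SE 0.28, adjusted p = 0.00223), and Polg2 (change -0.93, SE 0.33, adjusted p = 0.0377) and Nrf1 (change -0.90, SE 0.24, adjusted p = 0.00703) were lower.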

How the data were processed

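Total RNA of 21 samples was measured on the Affymetrix chips 430A and 430B. The values are the signal of each probe set as deposited by the authors, made with MAS5, per the submitters' processing notes; the trimmed mean of every array lay between 1500.2 and 1500.74, so each array had been scaled to a common level. The deposited signal was taken as log2 without an offset. The 64 control probe sets of each chip were left out, and a probe set was tested if at least 3 of the 21 arrays had it above their own 40th percentile, 16686 on 430A and 18239 on 430B. Day was fitted as a factor over the 21 arrays of a chip with limma 3.58.1 in R 4.3.3 (lmFit, eBayes with trend, two-sided, 14 residual degrees of freedom); p-values were adjusted per chip by Benjamini-Hochberg, with a threshold of 0.05; the procedure was tested on simulated data. Tables and figures used the R package data.table (version 1.17.8), Python 3.11.15, pandas 2.3.3, numpy 2.4.6 and matplotlib 3.10.9. The number of arrays limits the precision, and levels are not compared between probe sets.

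The members, the gene lists and the tests were chosen with earlier results of these data known. The text names the paired isoforms, the core subunits, up to 4 genes per complex with the largest called and separated change on day 30 against day 4, the 3 genes per complex with the smallest F test p, the largest called genes of the steps and of day 16 against day 6, and the 2 largest changes of each other list. Genes named outside this rule are marked as such or complete a count. Scan batches were read from the arrays' headers. Day 6 and day 16 against day 4, and day 30 against day 6, were 3 comparisons added after the data were seen. The NRF1 and YY1 motifs were shortened after a first search with longer forms of them. Alternatives were quantile normalization, median centring, an offset of 64, stricter and no filters, all probe sets of a gene, the Gapdh 3' to 5' ratio as a covariate, scan batch and replicate number as blocks, and leaving out each replicate.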

Additional observations from a re-analysis of the deposited data

How the results depend on the processing

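Leaving out each replicate in turn gave 17 to 27 genes called on day 30 against day 4 (26 with all samples), 20 to 31 on day 16 against day 4 (31), 2 to 25 on day 6 against day 4 (16), 8 to 10 on day 30 against day 6 (11), 0 to 2 on day 16 against day 6 (2), 0 to 1 on day 25 against day 16 (0) and 24 to 33 by the F test (29). The count on day 16 against day 4 was 20 without day 4 replicate 2, that on day 30 against day 4 was 17 without day 30 replicate 2, and that on day 16 against day 6 was 0 without day 16 replicate 1 and 1 without either day 6 replicate 1 or day 6 replicate 2; the 1 gene called for day 25 against day 16 appeared without day 25 replicate 3. Quantile normalization gave 4 genes on day 16 against day 6, all probe sets of a gene gave 1 on day 25 against day 16, and the Gapdh ratio as a covariate gave 6 on day 30 against day 6. The other alternatives kept these counts within 1.5 times. For Sdha the median over its 3 probe sets was -0.62 on day 30 against day 4 (smallest adjusted p 0.015, limma), against 0.03 for the probe set used. Causes were not tested.

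Same-numbered samples were not treated as pairs, since the labels state no link and not every pair correlated over 0.1. On 430A 16 of 63 same-number pairs did (highest 0.36, median 0.03), against 5 of 126 other pairs (highest 0.16), and on 430B 1 of 63 did. Summed striated muscle markers were lowest in replicate 3 on 7 of 7 days and pluripotency markers in replicate 1 on 6 of 7. Such sums could differ widely within a day, as for the erythroid genes on day 5, at 17.01, 15.21 and 10.83 in replicates 1, 2 and 3 (log2). What the replicate numbers and this spread stand for was not tested. With the replicate block 26 genes were called on day 30 against day 4, 32 by the F test and 1 on day 16 against day 8, where 0 were called without it.

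On 430A a fixed block for scan batch could be fitted only within the sets of days scanned together, and on both chips it called 3 genes on day 16 against day 6 and 0 on day 5 against day 4, day 8 against day 6, day 16 against day 8 and day 30 against day 25. Probe sets near background and the 3 genes not tested have no call.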

Other observations

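Markers of other cells moved with the days over which the respiratory chain genes were compared. On day 30 against day 4, 7 of 8 endoderm genes were higher and 0 lower, with Lama1, a basement membrane laminin of parietal endoderm, at a change of 6.32 (SE 0.73, limma adjusted p = 2.79e-06), and Afp, alpha-fetoprotein of visceral endoderm, at 6.02. Of 8 pluripotency genes 6 were lower and 0 higher, with Tdgf1 at -7.90 and Nanog at -5.48. Of 14 striated muscle genes 2 were higher (14.3%), a share near the 14.2% of all probe sets on 430A. They were the ventricular light chain gene Myl3 (change 3.04) and the calcium release channel gene Ryr2 (change 1.87). Of 7 erythroid genes 0 were called, Klf1 and Hbb-y having changes of 1.11 (adjusted p = 0.287) and -2.38 (adjusted p = 0.338). The largest change in the osteoblast list was that of Sparc, osteonectin, at 4.70 (limma adjusted p = 8.04e-08). Its mean was 12.33 on day 4 and 17.03 on day 30, beside 12.35 and 17.02 for Col4a1 of the endoderm list. Which cells gave the Sparc signal was not tested.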
